A study of Mus musculus with 36 samples.

Results

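The ventricles of WT mouse embryos at E16.5 were compared with the ventricles of WT embryos at E15.5, using 12 of the 36 RNA-seq libraries of a study of coronary vessel development. The 4 E16.5 WT libraries (numbered 1, 2, 3 and 5) each came from 1 embryo and were the controls of Efnb2flox;Nfatc1-Cre mutants, in which a Cre active in the endocardium deletes the ligand ephrin-B2. The first E15.5 set, the 4 WT controls of Dll4flox;Cdh5-CreERT2 mutants (here Dll4flox WT), and the second, the 4 WT controls of Dll4GOF;Tie2-Cre mutants (here Dll4GOF WT), were pools of 3 embryos per library. Mothers in the Dll4flox;Cdh5-CreERT2 crosses received tamoxifen to activate the endothelial Cre, and the sources used here state no such treatment for the other 2 experiments. WT is the only genotype that the labels give for these embryos. The sources used here do not say which flox, Cre or transgene alleles the WT embryos carried. The comparison covered the 13319 genes present in all 3 deposited tables, of 14155 genes in any of them. Each table was one experiment, so the day of development, the experiment and the number of embryos per library cannot be told apart. The difference between the E15.5 sets, which share labelled day, tissue, pooling and genotype label, was therefore set beside each result. It holds the experiment and the tamoxifen of the Dll4flox crosses, which cannot be told apart either. The study's text gives E15.5 for the Dll4flox;Cdh5-CreERT2 experiment, but the legend of its lists of differentially expressed genes gives E16.5. The day in the sample labels, E15.5, was used.

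In late gestation the mouse ventricle changes from a trabeculated fetal chamber into a wall that is perfused by coronary vessels. Fetal cardiomyocytes divide, burn glucose and lactate and use fetal forms of contractile proteins, and they turn gradually towards fatty acids, adult isoforms and a larger sarcoplasmic reticulum, much of this only around and after birth. Red blood cells change over the same days. Large primitive cells from the yolk sac, which carry embryonic globins, are replaced by definitive cells from the fetal liver, which carry adult globins. Whole ventricles hold cardiomyocytes, endocardial and vascular endothelial cells, fibroblasts, pericytes, valve mesenchyme and blood, so fewer cells of a type and less RNA per cell cannot be told apart in these data.

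Levels are given as normalised counts, the deposited depth-normalised counts put on a common scale over the 12 libraries, and differences are on the log2(value + 0.5) scale, E16.5 minus E15.5. A gene was called higher or lower in E16.5 when limma gave an adjusted p under 0.05 against both E15.5 sets, in the same direction, and the smaller of these differences was larger than the difference between the E15.5 sets. P values measure the spread between these libraries, each E16.5 library being a single embryo and each E15.5 library a pool. By this rule 978 genes were higher (7.34% of genes tested) and 837 were lower (6.28%) in E16.5 WT ventricles. Most differences were small: the median absolute difference was 0.16 from Dll4flox WT, 0.14 from Dll4GOF WT, and 0.13 between the E15.5 sets. Between the E15.5 sets alone, 2935 genes (22%) passed an adjusted p under 0.05. The 3-way rule, turned on each E15.5 set in place of E16.5, set apart 1432 genes (10.8%) in Dll4flox WT and 808 genes (6.07%) in Dll4GOF WT, against 1815 in E16.5 WT. The smaller difference exceeded 1 for 59 genes in E16.5 WT, 27 in Dll4flox WT and 13 in Dll4GOF WT. The libraries of a set lay closer to each other (median correlation 0.987, 0.991 and 0.992 in E16.5, Dll4flox and Dll4GOF WT) than to those of another set (0.978 and 0.983 between E16.5 and each E15.5 set, 0.985 between the E15.5 sets). A stricter fit that took each table, not each library, as 1 observation called 177 genes (1.33%) with limma, 74 higher and 103 lower, on 1 residual degree of freedom, with 13.7 more that limma borrowed from the other genes, and on the assumption that the lone E16.5 table varies like the E15.5 tables. That count ran from 55 without Dll4flox 1 to 440 without Dll4GOF 1, and was 273 without E16.5 5 and 62, 96 and 70 without Dll4GOF 2, 3 and 4, so it rests on single libraries.

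Counting which genes fell wholly outside the E15.5 range gave a similar picture. All 4 E16.5 libraries lay above all 8 E15.5 libraries in 1060 genes (7.96%) and below them in 763 genes (5.73%). Of these, 778 and 625 were also called higher and lower. The split of the calls depended on the scaling. On the common scale 53.9% of the calls were higher in E16.5, but with each table left on its authors' own scale 529 were higher and 1425 lower (27.1% higher), and the median difference of all genes was -0.06 on that scale. Reads per library ranged from 7827496 to 9890333 in E16.5 WT, from 10622477 to 14774561 in Dll4flox WT and from 14392366 to 18828254 in Dll4GOF WT, so the E16.5 libraries were the shallowest. Transcripts of the mitochondrial genome made up 7.68% to 8.23% of all counts in E16.5 WT, 6.57% to 7.42% in Dll4flox WT and 5.04% to 5.65% in Dll4GOF WT. Nuclear copies of these transcripts were left out of these shares. The division of reads between copy and mitochondrial gene differs by table, as given below.

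The embryonic globins fell, and Hbb-y had the largest smaller difference of all 1815 genes. Hbb-y, the embryonic beta-like globin of primitive red cells (chr7:103851749-103853216, minus strand, GRCm38), had 1.11, 3.38, 0.577 and 1.74 normalised counts in the 4 E16.5 libraries. It had 52.7, 26.6, 29.8 and 36.5 in Dll4flox WT and 16.8, 23.5, 44.1 and 65.8 in Dll4GOF WT. The lowest E15.5 library thus lay well above the highest E16.5 embryo. The difference was -4.18 from Dll4flox WT (standard error 0.38, adjusted p = 1.40e-06, limma) and -4.08 from Dll4GOF WT (adjusted p = 3.93e-06), while the E15.5 sets differed by 0.10 (adjusted p = 0.884). Hba-x, the embryonic zeta-like globin, had 1.37, 2.27, 1.42 and 0.896 normalised counts in E16.5 WT. It had 15.3, 8.86, 9.07 and 13.9 in Dll4flox WT and 10.7, 8.46, 14.2 and 23.9 in Dll4GOF WT. Its levels did not overlap either, with differences of -2.63 and -2.83 (standard error 0.27; adjusted p = 3.27e-06 and 4.50e-06, limma). Neither of these genes shares a 31-base word with another expressed gene.

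Of the adult globins, 0 of the 4 measured adult globin genes were called. Hbb-bs, an adult beta globin, had 1524, 2458, 1877 and 1851 normalised counts in E16.5 WT. It had 1600, 1685, 1636 and 2390 in Dll4flox WT and 2310, 1437, 1701 and 3056 in Dll4GOF WT, and the groups overlapped. Since the adult alpha genes Hba-a1 and Hba-a2 share most of their sequence, and Hbb-bs and Hbb-bt over 50% of theirs, their reads cannot be told apart safely; summed, the alpha pair differed by -0.11 and -0.09 and the beta pair by 0.02 and -0.26 from Dll4flox and Dll4GOF WT. Of 7 other red cell genes measured 0 fell and 1 was called higher, beside 6.28% and 7.34% of all genes. It was Tfrc, the transferrin receptor, which cardiomyocytes also use (0.18 and 0.36). Its call was lost without any 1 of 6 libraries (E16.5 1 or 5, Dll4flox 1, 2 or 3, Dll4GOF 1), on the authors' own scale, under quantile normalization, with the replicate number as a block and with a correction for GC content and length. The erythroid list, without globins, summed to 412 to 438 normalised counts in E16.5 WT, above 304 to 376 in Dll4flox WT and 320 to 378 in Dll4GOF WT.

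The promoters of both embryonic globin genes that fell, and of a pair of adult ones that were not called, are shown. Each window runs from 250 bases before to 50 bases after the gene's start and is given 5′ to 3′ on the gene's strand (RefSeq, GRCm38.p6); capitals mark 3 short words found on either strand. These were CACCC, read by erythroid Krüppel-like factor, CCAAT, read by CCAAT-binding factors, and AGATAA, 1 form of the word read by GATA factors.
Hbb-y, chr7:103853158-103853457, minus strand: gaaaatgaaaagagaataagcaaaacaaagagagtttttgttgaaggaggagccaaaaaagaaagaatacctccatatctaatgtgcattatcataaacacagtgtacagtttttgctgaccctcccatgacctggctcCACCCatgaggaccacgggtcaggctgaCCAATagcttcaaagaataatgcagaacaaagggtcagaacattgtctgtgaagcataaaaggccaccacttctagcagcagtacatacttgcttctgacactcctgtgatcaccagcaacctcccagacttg
Hba-x, chr11:32276350-32276649, plus strand: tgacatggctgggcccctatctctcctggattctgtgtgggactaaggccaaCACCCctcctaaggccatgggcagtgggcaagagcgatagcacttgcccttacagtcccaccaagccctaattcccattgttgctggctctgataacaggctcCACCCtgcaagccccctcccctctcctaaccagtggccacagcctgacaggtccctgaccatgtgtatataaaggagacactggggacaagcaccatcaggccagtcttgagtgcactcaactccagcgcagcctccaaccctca
Hbb-bs, chr7:103827879-103828178, minus strand: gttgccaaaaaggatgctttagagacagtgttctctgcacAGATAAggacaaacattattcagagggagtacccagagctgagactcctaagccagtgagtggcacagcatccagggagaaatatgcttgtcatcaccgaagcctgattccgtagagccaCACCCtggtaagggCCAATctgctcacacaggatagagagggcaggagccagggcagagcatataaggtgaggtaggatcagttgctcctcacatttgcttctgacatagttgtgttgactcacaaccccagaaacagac
Hba-a1, chr11:32283422-32283721, plus strand: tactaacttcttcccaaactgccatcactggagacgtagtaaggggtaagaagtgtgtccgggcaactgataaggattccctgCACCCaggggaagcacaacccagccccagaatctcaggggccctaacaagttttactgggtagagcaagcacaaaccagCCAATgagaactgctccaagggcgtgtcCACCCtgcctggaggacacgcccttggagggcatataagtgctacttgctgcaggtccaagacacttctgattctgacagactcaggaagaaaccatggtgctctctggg
All 4 windows held CACCC, 1 time in Hbb-y and Hbb-bs and 2 times in Hba-x and Hba-a1. CCAAT was found in all but Hba-x, and AGATAA in Hbb-bs alone. The form TGATAA, which was not marked, can also be read in the windows of Hbb-y (opposite strand), Hba-x and Hba-a1. Such short words are common: of 32851 promoter windows of the same length, 57.5% held CACCC, 37.4% CCAAT and 11.2% AGATAA.

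**Figure D1:**
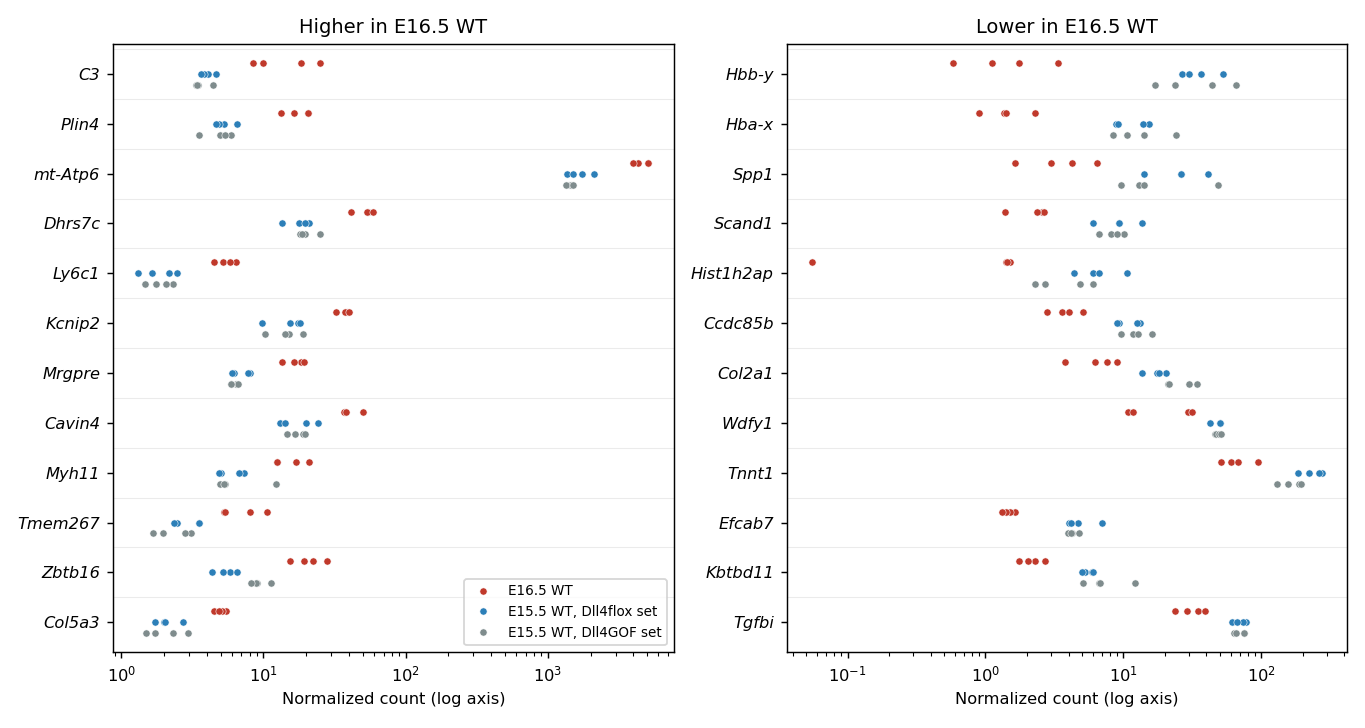
Normalised counts (log axis) of the 12 named genes with the largest smaller difference in each direction, 1 point per library, E16.5 WT (red) above Dll4flox WT (blue) and Dll4GOF WT (grey). By the rule that chose these genes the 4 E16.5 points lie outside all 8 E15.5 points, and Hbb-y has the widest gap, at 0.577 to 3.38 in E16.5 WT against 16.8 to 65.8 in the E15.5 sets.

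Of the 16 genes in the list of fetal sarcomere isoforms 7 fell and 0 rose, and of the 21 in the adult list 12 rose and 1 fell, against 7.34% higher and 6.28% lower among all genes. Both lists hold other muscle genes beside isoforms of the sarcomere. The 7 that fell were Acta1, Acta2, Actn1, Myl4, Myl7, Nppa and Tnnt1. Those that rose in the adult list were Myh6 and Myom2 of the sarcomere, the creatine kinases Ckm and Ckmt2, the respiratory chain subunits Cox7a1 and Cox8b, myoglobin (Mb), Fabp3, Casq2, Ryr2, Trdn and the glycogen phosphorylase Pygm, and Tcap, telethonin of the Z disc, fell. The median difference of the fetal list was -0.37 from Dll4flox WT and -0.22 from Dll4GOF WT, but the E15.5 sets also differed from each other by 0.35 in it. The adult list had medians of 0.31 and 0.29 with 0.08 between the E15.5 sets, and all genes had medians of -0.01, 0.01 and 0.00. With the correction for GC content and length, 5 genes of the fetal list were called lower and 0 higher. In the adult list 14 were then called higher and 0 lower. Tnnt1, the slow skeletal troponin T that the fetal heart also makes, had 94.6, 51.2, 60.001 and 67.4 normalised counts in E16.5 WT. It had 275, 221, 263 and 185 in Dll4flox WT and 156, 131, 188 and 192 in Dll4GOF WT. Its differences of -1.80 and -1.30 (standard error 0.16; adjusted p = 1.31e-06 and 4.09e-05, limma) were larger than the 0.50 between the E15.5 sets. Nppa, the atrial natriuretic peptide of atrial and fetal trabecular myocardium, had 579, 431, 424 and 447 normalised counts in E16.5 WT. It had 1323, 1271, 1211 and 996 in Dll4flox WT and 1004, 935, 864 and 873 in Dll4GOF WT, again without overlap. The differences were -1.36 and -0.98 (adjusted p = 3.35e-07 and 5.72e-06, limma). Myl4, the atrial and fetal essential light chain, fell by 0.74 and 0.61, Myl7, the atrial regulatory light chain, by 0.45 and 0.39, and Tnni2, fast skeletal troponin I, by 1.55 and 0.86. Acta1, skeletal alpha-actin, ranged from 73.0 to 118 in E16.5 WT, from 155 to 189 in Dll4flox WT and from 119 to 137 in Dll4GOF WT. Its call (-0.92 and -0.47) was lost with a correction for GC content and transcript length, with edgeR's quasi-likelihood test and without any 1 of 4 libraries (E16.5 2 or 3, Dll4flox 4, Dll4GOF 4).

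Of the myosin heavy chain pair that changes around birth, Myh6 was called higher and Myh7 was not called. Myh6, the adult mouse alpha myosin heavy chain, had 3668, 3619, 3580 and 5361 normalised counts in E16.5 WT. It had 2851, 3024, 2711 and 2648 in Dll4flox WT and 2297, 2371, 2205 and 2206 in Dll4GOF WT. All E16.5 libraries were higher, library 5 by far the most, with differences of 0.51 and 0.82 (adjusted p = 0.00112 and 4.26e-05, limma), but the call was lost after correction for GC content and length and under quantile normalization. Myh7, the fetal beta chain and the most abundant of them, ranged from 17837 to 19414 in E16.5 WT, 16389 to 20407 in Dll4flox WT and 17194 to 17522 in Dll4GOF WT. It differed by 0.01 and 0.10 (standard error 0.092 each; adjusted p = 0.942 and 0.463, limma) and was not called. Myh6 shares 29.1% of its 31-base words with Myh7. Among troponin I genes, Tnni1, the fetal slow form, had 1955 to 2222 in E16.5 WT, 1855 to 2165 in Dll4flox WT and 2005 to 2183 in Dll4GOF WT. Tnni3, the adult cardiac form, had 919 to 1181, 844 to 1054 and 778 to 905. Neither was called (0.03 and -0.03 for Tnni1, 0.11 and 0.29 for Tnni3), and the ventricular light chains Myl2 and Myl3 were not called either (differences from -0.07 to 0.08).

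Myom2, a myomesin of the M band, had 136, 172, 225 and 165 normalised counts in E16.5 WT. It had 101, 104, 80.8 and 102 in Dll4flox WT and 83.1, 111, 91.9 and 73.7 in Dll4GOF WT. Its differences were 0.83 and 0.94 (adjusted p = 0.000199 and 0.000119, limma). The mitochondrial and cytosolic creatine kinases Ckmt2 (0.68 and 1.01) and Ckm (0.49 and 0.67) rose as well. Outside the list, Dhrs7c, a dehydrogenase of the sarcoplasmic reticulum, had 41.5, 54.6, 53.4 and 59.3 in E16.5 WT. It had 17.7, 21.0, 13.4 and 19.7 in Dll4flox WT and 25.1, 19.7, 18.1 and 18.6 in Dll4GOF WT. The differences of 1.52 and 1.34 (standard error 0.13; adjusted p = 1.16e-06 and 6.52e-06, limma) came with no overlap between the groups. Cavin4, a muscle caveolar protein that lies along T tubules, had 37.2, 36.9, 50.6 and 38.1 in E16.5 WT. Its E15.5 levels ranged from 13.1 to 24.0 in Dll4flox WT and 14.7 to 19.6 in Dll4GOF WT, with a smaller difference of 1.19.

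Of 16 calcium handling genes 7 rose and 0 fell (7.34% and 6.28% of all genes did), Ryr2, Casq2 and Trdn being on the adult sarcomere list as well. Ryr2, the calcium release channel of the sarcoplasmic reticulum, had 777, 780, 798 and 854 normalised counts in E16.5 WT. It had 389, 455, 423 and 487 in Dll4flox WT and 559, 541, 541 and 582 in Dll4GOF WT, so that the E15.5 sets were also apart from each other (-0.35). The differences were 0.87 and 0.53 (standard error 0.060; adjusted p = 3.35e-07 and 1.95e-05, limma). Atp2a2, the calcium pump SERCA2, rose by 0.55 and 0.37, a call lost under quantile normalization, where it differed from the mean of both E15.5 sets by 0.10 in place of 0.46. Casq2 (0.45 and 0.45) and Trdn (0.44 and 0.43), which hold calcium and anchor it at the release channel, rose by nearly the same amount against both sets. With the correction for GC content and length, 5 of the 16 were called higher and 0 lower.

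Of 17 potassium and sodium channel genes and partners measured, 5 rose (29.4%, beside 7.34% of all genes) and 1 fell (5.88%, beside 6.28%). Kcnip2, the KChIP2 subunit of the transient outward potassium current, had 38.9, 32.6, 37.5 and 40.02 normalised counts in E16.5 WT. It had 15.4, 17.5, 9.75 and 18.2 in Dll4flox WT and 15.1, 19.1, 14.1 and 10.3 in Dll4GOF WT. The differences of 1.30 and 1.35 (standard error 0.18; adjusted p = 4.45e-05 and 6.03e-05, limma) stood against 0.05 between the E15.5 sets. Its partner Kcnd2, a pore subunit of that current, rose by 0.59 and 0.45, Kcnq1 by 0.53 and 0.33, and Abcc9, the SUR2 subunit of ATP-sensitive channels, by 0.55 and 0.45.

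Genes of fatty acid uptake and oxidation rose in 16 of 29 measured (55.2%, beside 7.34% of all genes), and 0 fell. The median difference of the list was 0.24 from Dll4flox WT and 0.25 from Dll4GOF WT, with 0.03 between the E15.5 sets. Acsl1, which activates long-chain fatty acids, had 346, 342, 387 and 380 normalised counts in E16.5 WT. It had 180, 207, 170 and 200 in Dll4flox WT and 183, 195, 157 and 160 in Dll4GOF WT. All E16.5 levels exceeded all E15.5 levels, with differences of 0.94 and 1.07 (standard error 0.075; adjusted p = 4.46e-07 and 3.18e-07, limma). Plin4, a coat protein of lipid droplets, had 13.3, 16.45, 20.6 and 20.5 in E16.5 WT. It had 5.31, 4.84, 4.64 and 6.51 in Dll4flox WT and 4.98, 5.94, 5.41 and 3.53 in Dll4GOF WT. Plin4 is not on the list; its rise by 1.63 and 1.74 (adjusted p = 2.63e-06 and 4.14e-06, limma) had the largest smaller difference of the 978 genes higher, after C3. Ppara, the nuclear receptor that drives fatty acid oxidation genes, had 21.1, 18.3, 20.8 and 21.0 in E16.5 WT. Its E15.5 sets lay apart from each other, at 4.77 to 8.67 in Dll4flox WT and 9.25 to 14.7 in Dll4GOF WT, and its call (1.59 and 0.85) was lost without Dll4flox 4 or Dll4GOF 3. The fatty acid carrier Cd36 rose by 0.62 and 0.87, lipoprotein lipase Lpl by 0.47 and 0.63, and the coactivator Ppargc1a by 0.45 and 0.33. Not every step moved: the carnitine palmitoyltransferases Cpt1a (0.26 and 0.04) and Cpt1b (0.16 and 0.14) and the pyruvate dehydrogenase kinase Pdk4 (0.02 and 0.05) were not called. Corrected for GC content and length, 21 of the 29 were called higher and 0 lower. Markers of brown fat, a tissue that also burns fatty acids, were examined as well. Of its 6 markers 3 were measured and 2 of them rose, Ppargc1a, which both lists hold, and Cidea, a lipid droplet protein. Cidea had 7.78, 6.26, 8.87 and 9.54 normalised counts in E16.5 WT, against 3.79 to 6.18 in Dll4flox WT and 4.73 to 5.33 in Dll4GOF WT (0.61 and 0.61; adjusted p = 0.00521 and 0.00669, limma). Fabp4, a fatty acid binding protein of fat and capillaries, was not called (0.25 and 0.65), and Ucp1, Adipoq and Plin1 were not among the genes of all 3 tables. The 3 markers summed to 368 to 444 in E16.5 WT, 300.2 to 347 in Dll4flox WT and 279 to 298 in Dll4GOF WT, and their part in the fatty acid result was not tested. Of 21 glycolysis genes 3 rose and 4 fell, the insulin-responsive glucose transporter Slc2a4 rising by 0.53 and 0.38 and the fetal one, Slc2a1, falling by 0.34 and 0.65, a call lost without any 1 of 5 libraries (E16.5 3, Dll4flox 1 or 4, Dll4GOF 1 or 2) and with the replicate number as a block. Of 38 nuclear genes of oxidative phosphorylation 6 rose (15.8%) and 1 fell (2.63%), beside 7.34% and 6.28% of all genes, and 15 were called higher and 1 lower after the correction. C3, the complement component, had 10.004, 25.1, 18.5 and 8.38 in E16.5 WT, against 3.64 to 4.65 in Dll4flox WT and 3.36 to 4.39 in Dll4GOF WT (1.69 and 1.82).

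**Figure D2:**
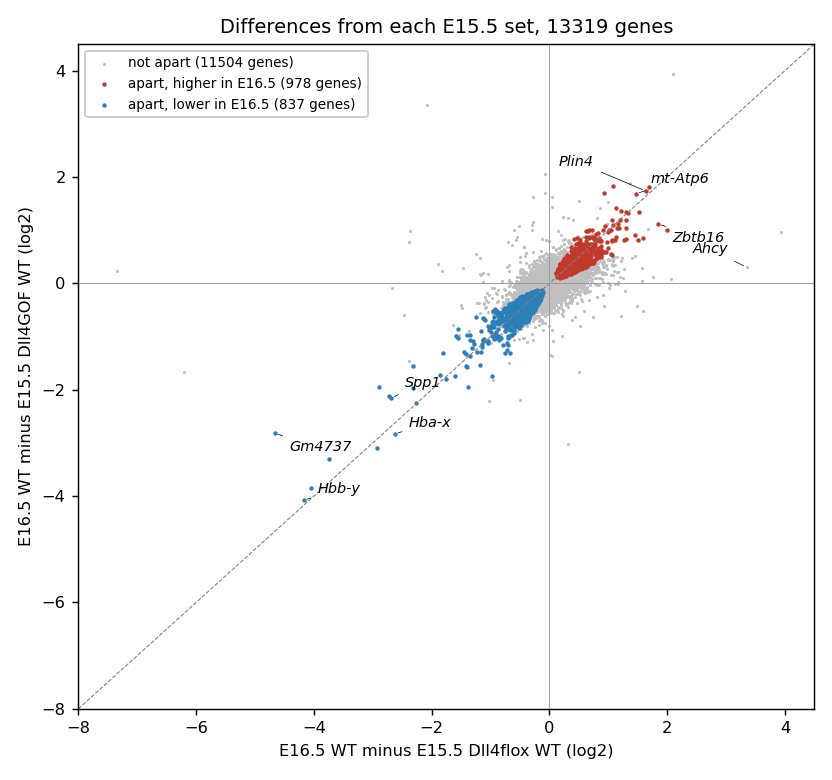
Difference of each of the 13319 genes from Dll4flox WT (horizontal) against that from Dll4GOF WT (vertical), log2, with genes called higher in E16.5 in red, called lower in blue and the rest in grey; the dashed line marks equality. Both axes share the 4 E16.5 libraries, so the points lie along the line in part by construction; Hbb-y lies at -4.18 and -4.08, and Ahcy at 3.35 and 0.30 lies off the line.

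Of 9 markers of capillary endothelium measured, 5 rose and 1 fell in E16.5 WT, and of 12 markers shared by all endothelial cells 0 were called in either direction. Of all genes 7.34% were higher and 6.28% lower. Between the E15.5 sets 7 of those 12 were called, beside 22% of all genes. Cd36 and Lpl are on the capillary list and on that of fatty acid genes. Gpihbp1, the capillary anchor of lipoprotein lipase, had 19.7, 20.7, 23.4 and 24.2 normalised counts in E16.5 WT. It had 12.6, 14.3, 12.48 and 12.6 in Dll4flox WT and 13.3, 12.8, 14.8 and 13.3 in Dll4GOF WT. The groups did not overlap, and the differences were 0.73 and 0.68 (standard error 0.086; adjusted p = 1.19e-05 and 5.10e-05, limma). Plvap, which forms the diaphragms of fetal and fenestrated vessels and also marks endocardium, fell by 0.46 and 0.69. Of 9 endocardial markers measured 3 fell, Plvap, Hapln1 and Tmem108 (-0.42 and -0.51), and 0 rose, with medians of -0.14 and -0.32 and -0.23 between the E15.5 sets, and 1 was called higher and 5 lower after correction for GC content and length. The pericyte gene Rgs5 had 146, 163, 161 and 154 in E16.5 WT, against 85.1 to 105 in Dll4flox WT and 81.6 to 101 in Dll4GOF WT, a rise of 0.76 and 0.83 (adjusted p = 1.87e-06 and 2.82e-06, limma). In smooth muscle the genes went both ways: Myh11, smooth muscle myosin, had 12.49 to 21.1 in E16.5 WT, against 4.89 to 7.33 in Dll4flox WT and 4.92 to 12.3 in Dll4GOF WT, whereas Cnn1, calponin, which fetal cardiomyocytes also make, fell by 1.02 and 0.88. Lymphatic markers gave 3 of 6 higher and 0 lower, Lyve1, Reln and Ccl21a. Lyve1, a hyaluronan receptor of lymphatic endothelium and some macrophages, had 16.1 to 20.8 in E16.5 WT, 9.67 to 11.9 in Dll4flox WT and 8.75 to 11.5 in Dll4GOF WT (0.77 and 0.80). Reln, a secreted glycoprotein of lymphatic vessels, rose by 1.27 and 0.82. Ccl21a, a chemokine of lymphatic vessels, had 12.36, 19.2, 17.7 and 16.2 in E16.5 WT, against 7.54 to 14.4 in Dll4flox WT and 10.6 to 12.4 in Dll4GOF WT (0.52 and 0.45). The groups overlapped, the call was lost in 10 of 12 fits without 1 library and under 6 of 14 other settings, and Gm21541 holds 80.6% of its 31-base words. Prox1, which defines that lineage but is also made by cardiomyocytes, was not called (0.14 and 0.10).

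Among 18 Notch pathway genes 2 rose and 2 fell (11.1% each), among 15 arterial markers 1 rose and 1 fell (6.67% each), and among 9 ephrin-B and EphB genes 0 rose and 1 fell, beside 7.34% higher and 6.28% lower of all genes. That 1 was Efnb1, a ligand of EphB receptors (-0.18 and -0.35), whose call was lost in 6 of 12 fits without 1 library and under 6 of 14 other settings. Dll4 had 24.98 to 26.9 normalised counts in E16.5 WT, 23.2 to 28.4 in Dll4flox WT and 30.7 to 34.3 in Dll4GOF WT. Efnb2, a marker of arterial endothelium, had 56.7 to 82.9, 71.2 to 81.0 and 68.9 to 78.9. The arterial list had medians of -0.15 from Dll4flox WT and -0.31 from Dll4GOF WT, with -0.08 between the E15.5 sets. Of its 15 genes, 11 had negative differences from both E15.5 sets and 2 had positive ones. Among all 13319 genes these counts were 4744 and 4854. After the correction for GC content and length 1 of the 15 was called higher and 0 lower. The E15.5 sets differed from each other in 7 of the 18 Notch genes, beside 22% of all genes, among them Notch1 (-0.52, adjusted p = 0.000226, limma), which had 78.5 to 100 in E16.5 WT, 67.7 to 78.2 in Dll4flox WT and 98.6 to 116 in Dll4GOF WT. Of the 4 Notch calls, that of the DNA-binding protein Rbpj (0.27 and 0.25) was lost under the correction for GC content and length alone. Those of the target Hey1 (-0.27 and -0.32) and the ligand Dll1 (-0.38 and -0.71) were lost under that correction, with edgeR, DESeq2 and voom, with the replicate number as a block, and in 8 and 9 of 12 fits without 1 library. Hey2, a Notch target that compact myocardium also makes, kept its call (0.14 and 0.23) under that correction but lost it on the authors' own scale, under quantile normalization and without E16.5 2, Dll4flox 1 or Dll4flox 3.

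Markers of parts that a ventricle dissection could include or leave out also moved, to be read against 7.34% higher and 6.28% lower of all genes. The atrial list fell in 3 of 10 genes, and its summed level was 1476 to 1799 in E16.5 WT, 2359 to 3170 in Dll4flox WT and 2349 to 2579 in Dll4GOF WT. Those 3 were Nppa, Myl4 and Myl7, which fetal ventricles also make. The atrial regulators Nr2f1 and Nr2f2 and the atrial genes Sln and Bmp10 were not called. Among valve markers 3 of 7 measured fell and 0 rose, and 2 were called lower and 0 higher after the correction for GC content and length. The 7 summed to 83.4 to 166 in E16.5 WT, 140 to 154 in Dll4flox WT and 164 to 195 in Dll4GOF WT, and E16.5 library 5 was the low one: Cthrc1 had 8.17, 9.25, 8.56 and 4.69 in E16.5 WT, and Fbln5, an elastic fibre protein of arteries and valves, 105, 181, 146 and 16.4. The call of Cthrc1 was lost in 0 of 12 fits without 1 library. Those of Scx and Papss2, also called lower in E16.5 WT, were lost in 8 and 7 of 12. Col2a1, a cartilage collagen also made in valve mesenchyme, had 8.96, 6.26, 7.61 and 3.74 in E16.5 WT. It had 17.6, 13.7, 20.4 and 18.1 in Dll4flox WT and 20.9, 21.2, 30.1 and 33.9 in Dll4GOF WT, a fall of 1.37 and 1.95. Spp1, osteopontin, had 1.63, 6.48, 4.25 and 3.01 in E16.5 WT, against 14.1 to 41.3 in Dll4flox WT and 9.65 to 48.7 in Dll4GOF WT (-2.69 and -2.16; adjusted p = 0.000171 and 0.00154, limma). Hapln1, a hyaluronan link protein of the endocardial cushions, fell by 0.79 and 0.70, and Tgfbi, a matrix protein, by 1.15 and 1.15. The part of dissection in these differences was not tested. Of 9 skeletal muscle markers 5 were measured: Ckm (0.49 and 0.67), which the heart also makes, and Myh8 (0.62 and 0.69) rose, Tnni2 fell, and Mylpf and Tnnt3 were not called. They summed to 1833 to 2137 in E16.5 WT, 1127 to 1648 in Dll4flox WT and 1098 to 1344 in Dll4GOF WT, of which Ckm made up 1819 to 2124, 1107 to 1629 and 1085 to 1329. Myog, Pax7, Actn3 and Myh3 were not among the genes of all 3 tables, and the part of skeletal muscle in the sarcomere lists was not tested. Defining genes of other tissues were mostly outside the joined tables: 0 of 7 lung, 0 of 9 thymus and lymphocyte and 1 of 8 liver markers were measured, and Alb, Afp, Sftpc and Cd3e were not among the genes of all 3 tables. The ventricular list itself had 1 gene higher and 1 lower of 10, and its summed level was 23927 to 27238 in E16.5 WT, 22957 to 26455 in Dll4flox WT and 21259 to 22857 in Dll4GOF WT.

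**Figure D3:**
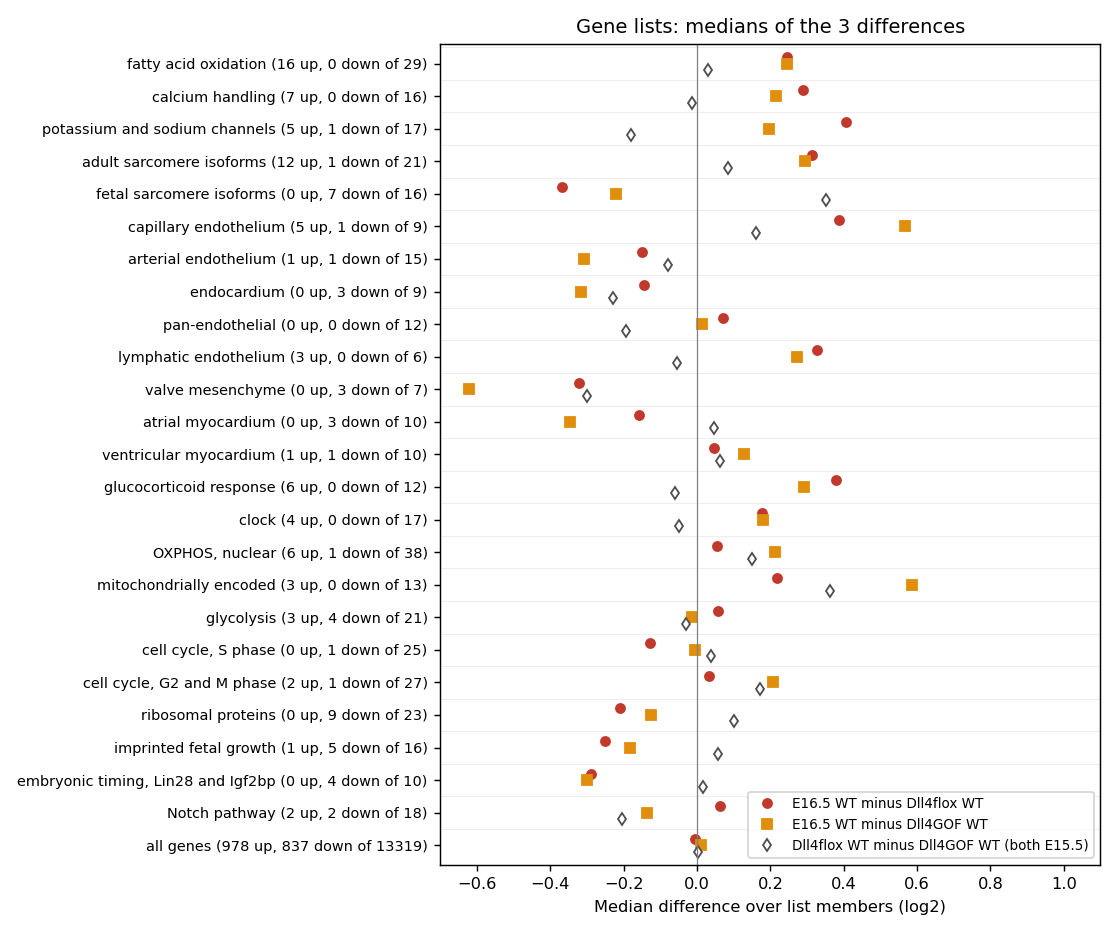
Median difference over the measured members of gene lists (log2), with E16.5 WT minus Dll4flox WT (red circles), E16.5 WT minus Dll4GOF WT (orange squares) and Dll4flox WT minus Dll4GOF WT (open diamonds); the labels count members called higher (up) and lower (down). Fatty acid oxidation lies at 0.24 and 0.25 with the diamond at 0.03, while mitochondrially encoded genes lie at 0.22 and 0.59 with the diamond at 0.36.

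Glucocorticoid-responsive genes rose in 6 of 12 measured, with 0 falling, where 7.34% of all genes were higher and 6.28% lower. Zbtb16, a zinc finger protein strongly induced by the hormone, had 15.4, 22.3, 28.2 and 19.2 normalised counts in E16.5 WT. It had 4.36, 5.80, 5.24 and 6.51 in Dll4flox WT and 11.3, 9.07, 8.91 and 8.20 in Dll4GOF WT. Its differences were 1.85 and 1.12 (standard error 0.16; adjusted p = 1.07e-06 and 0.000133, limma), and the E15.5 sets differed by -0.73. Klf9 rose by 0.84 and 0.64 and Fkbp5, a chaperone that binds the receptor, by 0.53 and 0.43, whereas Tsc22d3, another classic target, was not called (-0.03 and -0.01). Sgk1, a kinase, rose by 0.48 and 0.52. The list kept its direction with the correction for GC content and length (8 higher, 0 lower). Of 17 clock genes 4 rose (23.5%, beside the same 7.34%) and 0 fell, Npas2 (0.83 and 0.65), Hlf (0.51 and 0.46), Clock (0.48 and 0.30) and Nr1d2 (0.27 and 0.26), but the targets Dbp (-0.37 and -0.28) and Nr1d1 (0.17 and 0.18) were not called. The call of Nr1d2 was lost in 8 of 12 fits without 1 library, under quantile normalization and with the replicate number as a block, and that of Clock without E16.5 1, Dll4GOF 2 or Dll4GOF 3. Neither held on the authors' own scale or with the correction for GC content and length, under which 3 of the 17 were called higher and 1 lower. The sources used here give no hour of collection.

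Of 16 imprinted genes measured 5 fell (31.2%, beside 6.28% of all genes) and 1 rose (6.25%, beside 7.34%), with medians of -0.25 and -0.18 and 0.06 between the E15.5 sets. Cdkn1c, the imprinted inhibitor of cyclin-dependent kinases, had 200, 194, 177 and 170 normalised counts in E16.5 WT. It had 382, 322, 385 and 324 in Dll4flox WT and 279, 308, 321 and 331 in Dll4GOF WT. That is a fall of 0.93 and 0.74 (standard error 0.072; adjusted p = 4.23e-07 and 5.37e-06, limma) without overlap. H19, the imprinted long RNA, ranged from 6006 to 6401 in E16.5 WT, 7224 to 8224 in Dll4flox WT and 7242 to 7749 in Dll4GOF WT, and Nnat, neuronatin, fell by 1.14 and 1.07. Igf2, the growth factor of the same imprinted region as H19, was not called (-0.08 and -0.26). In the list of the Lin28 and let-7 timing pathway 4 of 10 fell and 0 rose, to be read against the same shares. Hmga2, a chromatin protein that let-7 represses, had 15.1, 13.4, 14.2 and 14.5 in E16.5 WT, against 22.7 to 27.0 in Dll4flox WT and 21.0 to 25.9 in Dll4GOF WT (-0.72 and -0.64). Mycn, which drives proliferation of fetal cardiomyocytes, had 24.1 to 29.7, 39.99 to 44.5 and 38.8 to 43.2, a fall of 0.63 and 0.60 with 0.03 between the E15.5 sets.

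Of 25 cell cycle genes of S phase 0 rose and 1 fell (4%), and of 27 of G2 and M phase 2 rose (7.41%) and 1 fell (3.70%), beside 7.34% higher and 6.28% lower of all genes. Of those 27, 15 were called between the E15.5 sets, beside 22% of all genes. Among 23 cardiac transcription factors 4 rose (17.4%) and 6 fell (26.1%), beside 7.34% and 6.28% of all genes, and 5 were called higher and 1 lower after correction for GC content and length. Nkx2-5 had 58.9, 61.4, 82.2 and 79.6 in E16.5 WT, against 83.2 to 111 in Dll4flox WT and 112 to 122 in Dll4GOF WT (-0.50 and -0.75). The 6 that fell were Nkx2-5, Gata5, Hand1, Irx4, Gata4 and Hand2, of which Gata5 alone kept the call after that correction. Ribosomal protein genes fell in 9 of 23 and rose in 0, with medians of -0.21 and -0.12, and 7 fell after the correction.

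Some of the largest differences between tables belonged to genes with a near-identical copy elsewhere in the genome. Transcripts of the 159 named genes, the 59 genes apart by more than 1 and a few related models were cut into 31-base words. Other genes were not searched for copies of their own. A copy was taken as another expressed gene that holds over 50% of a gene's words. Of the 59 genes apart by more than 1, 15 had such a copy, and 3 had no annotated transcript to search. Ahcy, adenosylhomocysteinase, lies on chromosome 2 (155059310 to 155074497, minus strand, GRCm38) and the gene model Gm4737 on chromosome 16 (46152985 to 46155077). Their coding sequences of 1296 bases differ at 4 positions (99.7% identity). A stretch of both, coding bases 414 to 503, shows how little there is to assign a read by; capitals mark 2 of these differing bases.
Ahcy: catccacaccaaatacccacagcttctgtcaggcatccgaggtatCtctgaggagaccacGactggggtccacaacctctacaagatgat
Gm4737: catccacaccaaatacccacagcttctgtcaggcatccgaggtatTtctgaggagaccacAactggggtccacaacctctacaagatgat
Ahcy had 102, 98.4, 86.6 and 95.2 normalised counts in E16.5 WT. It had 5.10, 13.3, 5.41 and 16.7 in Dll4flox WT and 68.2, 73.9, 78.1 and 91.4 in Dll4GOF WT. Gm4737 ran the other way, with 0.065, 4.49, 8.87 and 7.12 in E16.5 WT, 101, 95.6, 98.8 and 85.5 in Dll4flox WT and 35.7, 30.9, 24.9 and 16.9 in Dll4GOF WT. Summed, the pair had 95.4 to 103 in E16.5 WT, 102 to 109 in Dll4flox WT and 103 to 108 in Dll4GOF WT, differences of -0.06 and -0.06. Gm4737 alone was called lower in E16.5 WT (-4.66 and -2.82), and Ahcy was not called (3.35 and 0.30).

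The mitochondrial genes were touched in the same way. mt-Atp6, a subunit of the ATP synthase, was called higher by 1.47 and 1.68, with 5079, 4338, 3958 and 5094 normalised counts in E16.5 WT, 1357, 2118, 1518 and 1740 in Dll4flox WT and 1422, 1456, 1338 and 1510 in Dll4GOF WT. Its 678 aligned coding bases are identical to Gm10925, a nuclear copy on chromosome 1 (24613974 to 24614651), so a single line serves for the first 90 bases of both.
mt-Atp6 and Gm10925: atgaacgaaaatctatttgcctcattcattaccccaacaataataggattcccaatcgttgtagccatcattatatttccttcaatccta
Their sum had 8706 to 9534 in E16.5 WT, 6785 to 7792 in Dll4flox WT and 5039 to 5805 in Dll4GOF WT. It differed by 0.31 and 0.74, the smaller being under the 0.42 between the E15.5 sets, and the call was lost, as was that of mt-Nd3 summed with its copy Gm28438 (0.22 and 0.58, with 0.36 between the E15.5 sets). In all, 3 of 13 mitochondrially encoded genes were called higher and 0 lower, beside 7.34% and 6.28% of all genes. The third was mt-Co1 (0.27 and 0.47), whose call was lost in 8 of 12 fits without 1 library, on the authors' own scale, under quantile normalization and with the replicate number as a block. After the correction for GC content and length 11 of the 13 were called higher and 0 lower. That correction was made on values without summed copies, and no fit combined the correction with the sums. The medians of the 13 genes, 0.22 and 0.59, stood beside 0.36 between the E15.5 sets, which differed in 10 of the 13, beside 22% of all genes. mt-Co2 shows the same between the E15.5 sets, with 4878 to 6062 in E16.5 WT, 5211 to 6776 in Dll4flox WT and 1601 to 2082 in Dll4GOF WT. Summed with its copy Gm28661 it had 10024 to 11117, 8091 to 8994 and 6830 to 7746.

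**Figure D4:**
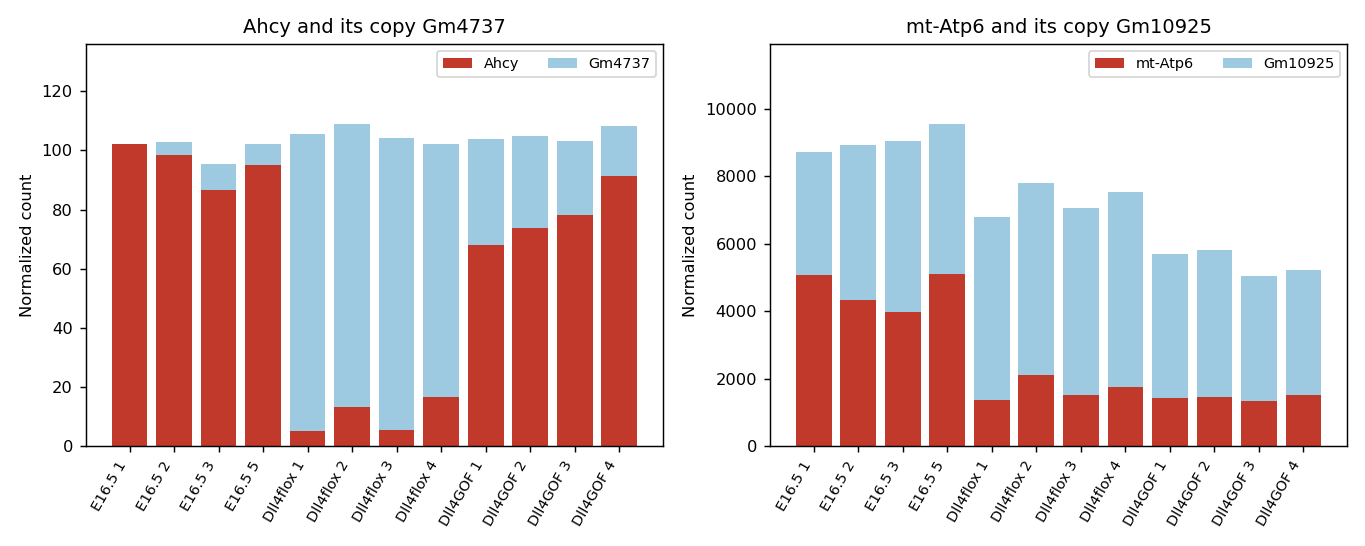
Normalised counts of Ahcy (red) stacked with Gm4737 (blue), left, and of mt-Atp6 stacked with Gm10925, right, 1 bar per library, with E16.5 WT first and Dll4flox WT and Dll4GOF WT after it. The division between the copies changes by table, while the Ahcy sum stays at 95.4 to 109 in all 12 libraries.

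The largest differences between the E15.5 sets had copies too. Gm10182, whose words all lie in Hmgn2, had 184 to 286 normalised counts in Dll4flox WT and 0.0261 to 2.21 in Dll4GOF WT, and 0.0554 to 2.90 in E16.5 WT. Rpl17-ps8, a copy of Rpl17, had 77.9 to 103 in Dll4flox WT and 0.0283 to 13.3 in Dll4GOF WT. Of the 6 genes with the largest difference there, all had a copy with over 50% of their words. Of 197 pseudogenes tested, 32.0% were called between the E15.5 sets, 4.06% were higher and 12.2% lower in E16.5 WT, beside 22%, 7.34% and 6.28% of all genes. Summing the pairs found among the searched genes left the totals close to those given (973 higher and 827 lower, 970 and 823 of them shared). Most of the 13319 genes were not searched, so these totals cannot show how far copies affect the counts.

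Calls also went with base composition and transcript length. Genes higher in E16.5 WT had a median GC content of 46.3% and a median transcript length of 4592 bases, and genes lower had 55.0% and 2489 bases, against 49.6% and 3442 bases among all genes. Genes were ordered into 5 bins of equal size. In the bin of lowest GC content 11.4% were higher and 1.40% lower, and in the bin of highest GC content 2.38% were higher and 14.8% lower. In the bin of shortest transcripts 2.53% were higher and 11.7% lower, and in the longest 13.7% and 1.89%. When values were corrected in each library for GC content and length, 932 genes were higher and 738 lower, of which 585 and 478 were among those called before. The calls between the E15.5 sets dropped to 1586 under the same correction. Of 133 named genes with a call, 24 lost it. Hbb-y, Hba-x, Tnnt1, Nppa, Plin4, Acsl1, Kcnip2, Dhrs7c, Zbtb16, Cdkn1c, Mycn and Hmga2 were not among them.

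**Figure D5:**
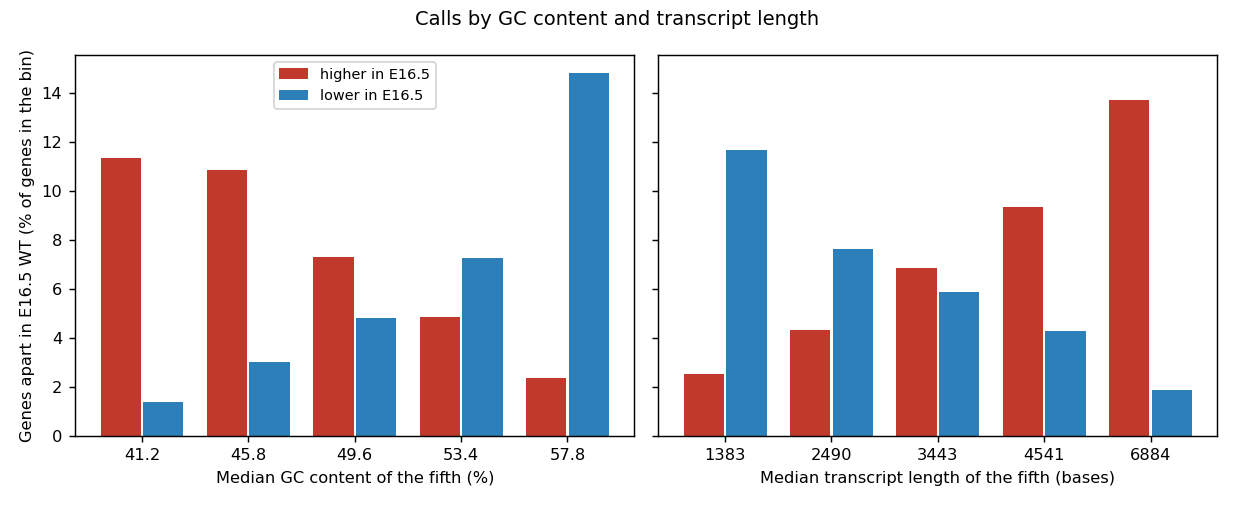
Share of genes called higher (red) and lower (blue) in E16.5 WT in 5 equal bins of all genes by GC content (left, median percent of each bin) and by length of the longest transcript (right, median bases). The share higher drops with GC content from 11.4% to 2.38% and the share lower climbs from 1.40% to 14.8%, with the opposite order over length.

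Sex-linked genes showed how the libraries were made up. Xist, the RNA of the inactive X chromosome, had 0.065, 440, 0.0525 and 434 normalised counts in E16.5 libraries 1, 2, 3 and 5. Ddx3y, on the Y chromosome, had 77.2, 0.388, 76.5 and 0.0527 in the same order, so each single embryo expressed 1 of these genes. In Dll4flox WT, Xist had 352, 156, 2.85 and 536 and Ddx3y 20.8, 47.4, 69.1 and 0.135; in Dll4GOF WT, Xist had 323, 438, 0.141 and 0.338 and Ddx3y 32.5, 0.034, 56.6 and 64.6. Pools with both were thus seen in the E15.5 sets (Dll4flox 1 and 2, Dll4GOF 1), and 0 of 9 sex-linked genes were called. Levels within the E16.5 set also divided without regard to sex in Wdfy1, an endosomal adaptor, at 29.2, 10.8, 11.7 and 31.3, all below the E15.5 range of 42.5 to 50.7. Rps2, a ribosomal protein gene, had 209, 209, 97.9 and 92.7 in E16.5 WT, and with Rps2-ps10, a copy with 40.3% of its words, 213, 212, 219 and 211.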

How the data were processed

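Polyadenylated RNA of whole ventricles was sequenced from NEBNext Ultra libraries, which the sources used here do not state to be stranded. The authors trimmed reads with Cutadapt 1.6, ran FastQC and estimated expression with RSEM 1.2.3 (release as in the submitters' processing notes) against the GRCm38 transcriptome. The deposited signal values are counts estimated by RSEM, with a small offset, scaled to a library size adjusted by the authors. Each table was normalised separately.

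Groups came from the sample labels. The 3 tables were joined on gene ID, rescaled together by TMM (edgeR 4.0.16) and tested with limma 3.58.1 in R 4.3.3 on log2(value + 0.5), letting the variance follow the mean, and p values were adjusted by Benjamini-Hochberg over 13319 genes. Undoing the deposited scaling gave whole numbers, within 0.01, for 100% of values in each library. These estimated counts are called reads here. Named genes were the 12 with the largest smaller difference in each direction among called genes outside the E15.5 range (pseudogenes and predicted models left out), up to 4 called members per list with the largest smaller difference, all globin, sex-linked, troponin I and myosin chain genes in the lists, and the 6 with the largest difference between the E15.5 sets. Other genes with values, among them Gm4737, Gm10925, Gm28438, Gm28661, mt-Co2, Rps2-ps10, Fbln5, Hand2, Gata4, Prox1, Dbp, Nr1d1, Igf2, Tsc22d3, Cpt1a, Cpt1b, Pdk4, Fabp4, Dll4, Efnb2 and Notch1, were chosen after their values were seen. The comparison and the gene lists were chosen with earlier results of these data known. Alternatives were edgeR's quasi-likelihood test, DESeq2 1.42.0 and limma voom on these reads, other scalings, pseudocount, filter, variance models, thresholds, a replicate block and leaving out each library. Corrections for GC content and length and the summing of copies were added after seeing the data. The script was tested on simulated reads with random table effects but without effects of GC content, transcript length or gene copies. That test checked the code and does not say how many calls in these data are false.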

Additional observations from a re-analysis of the deposited data

Results flagged for a closer look

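Each of the 159 named genes was examined in each set of 4 libraries, 477 groups in all, for 1 library standing far from the other 3: the gap to the nearest of them divided by the whole range of the set had to exceed Dixon's critical value for a set of this size. It did in 33 groups, 13 in E16.5 WT, 9 in Dll4flox WT and 11 in Dll4GOF WT. Chance alone also puts a small share of such sets past that value. How many of the 477 groups it would put there was not computed. The 33 groups are therefore listed for a closer look and are not shown to be more than chance gives.

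In E16.5 WT, these were the genes. Cavin4 stood highest in library 3, at 50.6 against 36.9 to 38.1 normalised counts (ratio 0.914). Efnb1 stood lowest in library 1, at 34.3 against 39.5 to 40.5 normalised counts (ratio 0.84). Hist1h2ap stood lowest in library 2, at 0.0554 against 1.42 to 1.5 normalised counts (ratio 0.94). Mt3 stood lowest in library 2, at 12.8 against 13.7 to 13.8 normalised counts (ratio 0.851). Myh6 stood highest in library 5, at 5361 against 3580 to 3668 normalised counts (ratio 0.95). Myl2 stood highest in library 5, at 5630 against 4630 to 4746 normalised counts (ratio 0.884). Myl7 stood highest in library 1, at 226 against 217 to 218 normalised counts (ratio 0.925). Ndufs1 stood highest in library 5, at 655 against 610 to 616 normalised counts (ratio 0.869). Nppa stood highest in library 1, at 579 against 424 to 447 normalised counts (ratio 0.853). Papss2 stood lowest in library 5, at 7.65 against 13.6 to 14.7 normalised counts (ratio 0.839). Pdgfc stood lowest in library 5, at 5.11 against 6.21 to 6.37 normalised counts (ratio 0.874). Ppara stood lowest in library 2, at 18.3 against 20.8 to 21.1 normalised counts (ratio 0.9). Rpl13 stood highest in library 1, at 326 against 292 to 296 normalised counts (ratio 0.881).

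In Dll4flox WT, these were the genes. Gm10182 stood highest in library 1, at 286 against 184 to 198 normalised counts (ratio 0.855). Gm9770 stood highest in library 3, at 4.98 against 0.0338 to 0.0479 normalised counts (ratio 0.997). Gpihbp1 stood highest in library 2, at 14.3 against 12.48 to 12.6 normalised counts (ratio 0.923). Hbb-bs stood highest in library 4, at 2390 against 1600 to 1685 normalised counts (ratio 0.893). Hmga2 stood highest in library 3, at 27 against 22.7 to 23.3 normalised counts (ratio 0.869). Meis2 stood lowest in library 2, at 59.9 against 65.9 to 67.1 normalised counts (ratio 0.831). Myom2 stood lowest in library 3, at 80.8 against 101 to 104 normalised counts (ratio 0.834). Sgk1 stood lowest in library 3, at 21.8 against 25.5 to 25.9 normalised counts (ratio 0.902). Wdfy1 stood lowest in library 1, at 42.5 against 49.8 to 50.3 normalised counts (ratio 0.928).

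In Dll4GOF WT, these were the genes. C3 stood highest in library 4, at 4.39 against 3.36 to 3.47 normalised counts (ratio 0.895). Egln3 stood highest in library 4, at 59.8 against 42.6 to 45.1 normalised counts (ratio 0.854). Gm28439 stood highest in library 1, at 99.2 against 0.034 to 8.91 normalised counts (ratio 0.91). Gm9770 stood lowest in library 3, at 7.73 against 9.68 to 9.79 normalised counts (ratio 0.946). Hand1 stood lowest in library 2, at 9.61 against 13.9 to 14.7 normalised counts (ratio 0.846). Kcnd2 stood highest in library 1, at 9.16 against 7.58 to 7.78 normalised counts (ratio 0.873). mt-Nd3 stood highest in library 1, at 283 against 200.6 to 214 normalised counts (ratio 0.837). Mt3 stood lowest in library 3, at 16.6 against 17.4 to 17.5 normalised counts (ratio 0.874). Myh11 stood highest in library 3, at 12.3 against 4.92 to 5.35 normalised counts (ratio 0.942). Rps18 stood highest in library 2, at 415 against 385 to 389 normalised counts (ratio 0.87). Spp1 stood highest in library 2, at 48.7 against 9.65 to 14 normalised counts (ratio 0.888).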

How the results depend on the processing

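Counts are given as genes higher in E16.5, lower in E16.5, called between the E15.5 sets, apart in Dll4flox WT, apart in Dll4GOF WT and called on table means. With the scaling that the authors deposited, 529 were higher, 1425 lower and 55 called on table means. Table means gave 322 calls with quantile normalization and 275 with robust variances. At an adjusted p under 0.01 the counts were 546, 429, 1535, 748, 312 and 69, and with an absolute difference over 1 as well 21, 38, 57, 27, 13 and 92. With the correction for GC content and length, 1586 were called between the E15.5 sets, 846 were apart in Dll4flox WT, 345 in Dll4GOF WT and 80 on table means. Leaving out each library gave 700 to 987 higher, 692 to 854 lower, 2107 to 3054 between the E15.5 sets, 1085 to 1603 apart in Dll4flox WT, 464 to 787 apart in Dll4GOF WT (lowest without Dll4GOF 3) and 55 to 440 on table means. Atp5a1 changed sign under quantile normalization (-0.0708). The cause was not tested in any of these. Of 133 named calls, 49 higher and 40 lower held in every setting but the fold threshold.

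No pairing of libraries by replicate number was assumed. Correlations of the deviations from the set mean ran from -0.06 to 0.16 for same-numbered libraries of different sets. For other pairs of libraries they ran from -0.21 to 0.19. Between the E15.5 sets they ran from -0.002 to 0.16 for same-numbered pairs and from -0.18 to 0.10 for others, so a pairing there is not settled. With the replicate block 1000 genes were higher and 816 lower, and 14 named calls were lost. Count tests on the recovered reads gave 970 higher and 821 lower with edgeR, 887 and 812 with DESeq2 and 960 and 777 with limma voom, of which 942 and 802, 876 and 760, and 939 and 764 were shared with the calls reported. The E16.5 libraries were the shallowest, which limits genes of few reads most.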
